A study of Taeniopygia guttata with 134 samples.

Results

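The response of the nucleus taeniae (TN) to lipopolysaccharide (LPS) was measured in male zebra finches (Taeniopygia guttata) that were kept isolated after the injection, a setting the labels call ISO. Members were chosen by library title: 6 TN libraries of ISO males given LPS (males 6, 8, 9, 14, 16 and 56) and 6 TN libraries of ISO males given the control injection (males 5, 12, 13, 50, 52 and 53). These are 12 of the 134 libraries of the series, each from polyadenylated RNA of 1 brain region of 1 male. The same 12 males also gave 1 library of the hypothalamus (HY) each and 1 of the stria terminalis' bed nucleus (NST). After injection other males were housed without a break beside a familiar female (KFC, 5 LPS and 5 control TN libraries), were reunited with one (KF, 6 and 6) or were introduced to a female new to them (NF, 4 and 5). The labels write the control injection as S and the series' description as C. The sources used here do not state strain, age, dose or the interval between injection and sampling.

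LPS is a component of the outer membrane of Gram-negative bacteria. Immune cells sense it through a Toll-like receptor and release cytokines, and signals of that kind reach the brain and bring on fever, loss of appetite and withdrawal from others, the pattern known as sickness behaviour. The nucleus taeniae is a cell group of the avian arcopallium that is commonly compared with part of the mammalian medial amygdala, and it is studied for its part in social and sexual behaviour. Gene identifiers could not be paired with gene names (0 of 18618 identifiers matched the zebra finch gene table used), so genes are grouped here by level, size of change and behaviour across males, and 4 genes are given by identifier. For the same reason the tissue label could not be checked against marker genes. Its profile could be checked: across genes, the 12 libraries correlated with the median TN library at 0.963 to 0.979, and each of them less with the median NST library (0.949 to 0.971) and the median HY library (0.945 to 0.963). The median TN library includes these 12, and genes are not independent replicates. In pieces of tissue such as these, fewer cells of a type and less RNA per cell cannot be told apart.

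Total counts ran from 9049816 to 11858684 in LPS males and from 11290509 to 14096470 in control males, so LPS libraries were shallower (exact permutation test of the means, 2-sided p = 0.0173, n = 6 and 6). With the 12 libraries thinned to the smallest total, 143 genes passed the test described next, against 154 at full depth. Between 15583 and 15845 genes had at least 1 count in LPS males, and between 15550 and 15851 in control males. The 100 genes that stood lowest in TN relative to HY in control males of the other settings averaged 0.73 to 2.14 log2 CPM (CPM being a gene's count scaled to a common library total) in LPS males and 0.82 to 2.03 in control males. The corresponding 100 genes for NST averaged 0.85 to 1.74 in LPS males and 1.08 to 1.96 in control males. The 100 genes highest in TN averaged 4.46 to 5.20 in LPS males and 4.68 to 5.16 in control males where HY was the other region, and 3.89 to 4.58 and 3.74 to 4.49 where it was NST. The injection groups overlapped in all 4 lists, which held 1 of the genes that LPS raised and 0 of those it lowered.

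LPS raised 130 genes and lowered 24 in the nucleus taeniae of males kept alone. Among called genes rises were the larger changes: their median was 1.63 on the log2 scale and 107 of 130 exceeded 2-fold, while the median fall was -0.60 and 6 of 24 exceeded 2-fold. Rises and falls differed in level and precision, with median control levels of 3.73 and 25.5 CPM and median SE of 0.34 and 0.15. Smaller changes could thus be called among the falls. At 10 to 100 CPM in control males the medians were 0.86 and -0.59. Of all 14598 genes tested, 757 changed by more than 2-fold in either direction. The part of level in the difference in size was not tested. The 130 genes together made up 2475 to 4114 CPM in LPS males, against 1313 to 1497 in control males. The 24 genes that fell made up 834 to 953 CPM in LPS males, against 1228 to 1481 in control males. Among 14598 genes tested the called share was 1.05%, with 0.891% called higher and 0.164% called lower (quasi-likelihood test in edgeR, 2-sided, p adjusted after Benjamini and Hochberg to under 0.05). The median change over all genes tested was -0.0016. DESeq2 called 264 genes, 202 higher and 62 lower, among them all 130 rises and all 24 falls. Without LPS males 8 or 56 the edgeR count was 87 or 100 and without control male 52 it was 84, and a fit to the 12 ISO libraries alone called 98, of which 72 rises and 5 falls were among the 130 and 24. Of the rises 61 were called in each of the 12 fits that left out 1 library, and of the falls 8.

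**Figure D1:**
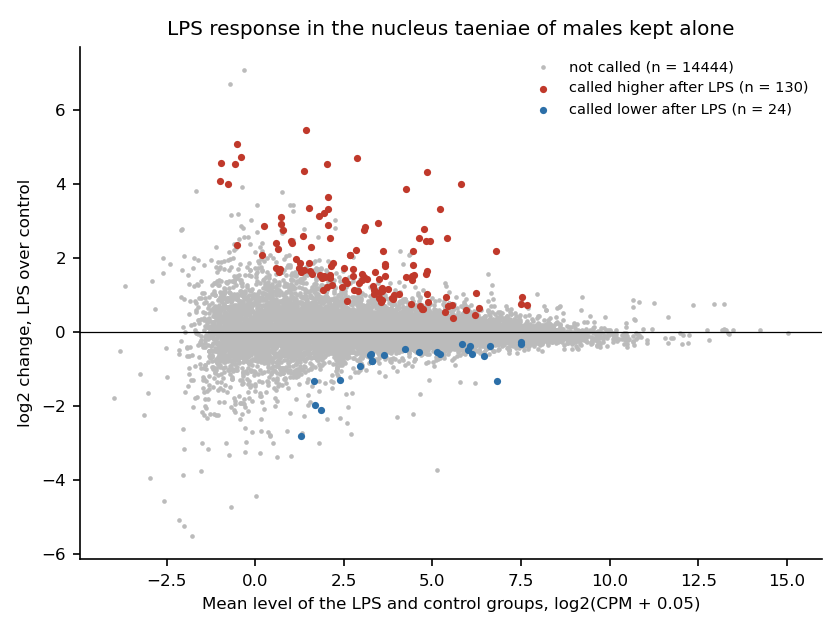
The log2 change after LPS (vertical axis) is plotted against the mean level of both groups on a log2 scale (horizontal axis) for the 14598 genes tested in TN of ISO males, each point 1 gene. Red points are the 130 genes called higher and blue points the 24 called lower; the red points reach a change of 5.46 and the blue points -2.82.

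The rises spanned a wide range of levels but were concentrated at low ones. Of the rises 24.6% had a control mean under 1 CPM and 54.6% one of 1 to 10 CPM. Over all genes tested these shares were 9.16% and 28.2%. At 10 to 100 CPM the shares were 18.5% of the rises and 49% of all genes tested. At 100 CPM or more they were 2.31% and 13.7%. In control males 32 of the 130 had a mean under 1 CPM, and their means in LPS males ran from 0.858 to 14.02 CPM. Of these 32 genes 18 would not have passed the filter on low counts in the 22 control libraries of TN alone, so they entered through LPS libraries, where they were high. Of all 1337 genes tested with a control mean under 1 CPM, 428 would not have passed in control libraries alone. The number of these 32 rises and the size of their changes (median 3.03 on the log2 scale) thus follow in part from the filter and from what can be called at such counts. All the other rises passed the filter in control libraries alone. Of these, 71 had a control mean of 1 to 10 CPM and a median change of 1.53, and their means in LPS males ran from 3.55 to 105 CPM. The 24 genes at 10 to 100 CPM in control males had a median change of 0.86, and the 3 genes at 100 CPM or more had one of 0.76, with LPS means of 227 to 253 CPM. The fitted change of a gene near 0 in control males depends on the prior count of the model. Changes of more than 4-fold were found for 47 rises, of more than 8-fold for 20 and of more than 16-fold for 12. Among the falls 5 genes had a control mean of 1 to 10 CPM, 14 one of 10 to 100 and 5 one of 100 CPM or more, and 9 of the 24 fell by less than 1.5-fold. A gene under 1 CPM in control males had little room to be called lower, so the 0 falls at that level are no contrast with the rises.

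The largest rise among called genes with a mean of at least 1 CPM was that of ENSTGUG00000017314. It stood at 5.55, 8.25, 5.21, 5.74, 1.22 and 5.32 CPM in LPS males 6, 8, 9, 14, 16 and 56, against 0.333, 0, 0.0894, 0.239, 0 and 0 CPM in control males 5, 12, 13, 50, 52 and 53. No control male had more than 4 counts, and even LPS male 16, the lowest of its group, exceeded all of them. In control libraries of TN from other settings it stood at 0.393 CPM at most, where the filter asked for 0.864 CPM in at least 4 libraries. It is thus 1 of the 18 genes that entered through LPS libraries, and its low control level and large change are not independent of that. The fitted log2 change was 5.46 (SE 0.77, edgeR adjusted p = 2.87e-05, n = 6 and 6).

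ENSTGUG00000001423 had the second largest rise. Its level was 20.1, 9.44, 12.9, 4.43, 1.83 and 35.4 CPM in LPS males 6, 8, 9, 14, 16 and 56, against 0.250, 0.639, 0.179, 1.28, 0.397 and 0.387 CPM in control males 5, 12, 13, 50, 52 and 53. The groups did not overlap, but the gap between LPS male 16 and control male 50 was small beside the spread among LPS males. This gene reached the 0.864 CPM of the filter in too few control libraries of TN, so it too is 1 of the 18 genes that entered through LPS libraries. The mean was 14.02 ± 12.3 CPM in LPS males and 0.521 ± 0.402 CPM in control males (SD, n = 6 each), with a fitted log2 change of 4.71 (SE 0.84, edgeR adjusted p = 0.00102).

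The largest fall was that of ENSTGUG00000008336. It stood at 0.333, 0.994, 0.434, 1.07, 0.175 and 0.467 CPM in LPS males 6, 8, 9, 14, 16 and 56, against 3.24, 3.48, 2.59, 7.81, 4.37 and 3.48 CPM in control males 5, 12, 13, 50, 52 and 53. Every LPS male was below every control male, and control male 50 stood apart as the highest. The fitted log2 change was -2.82 (SE 0.64, edgeR adjusted p = 0.0150), and it passed in each of the 12 fits that left out 1 library. In those fits the edgeR adjusted p ran from 0.0148 to 0.0490, close to the threshold without control male 50.

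ENSTGUG00000015635 had the second largest fall. Its level was 1.77, 0.696, 0.782, 1.48, 2.01 and 1.31 CPM in LPS males 6, 8, 9, 14, 16 and 56, against 4.33, 1.28, 1.43, 13.3, 5.48 and 9.21 CPM in control males 5, 12, 13, 50, 52 and 53. The groups overlapped, because control males 12 and 13 stood within the range of LPS males. The fitted log2 change of -2.12 (SE 0.56, edgeR adjusted p = 0.0486) missed the threshold in 9 of the 12 fits that left out 1 library, where the adjusted p ran from 0.0270 to 0.183.

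**Figure D2:**
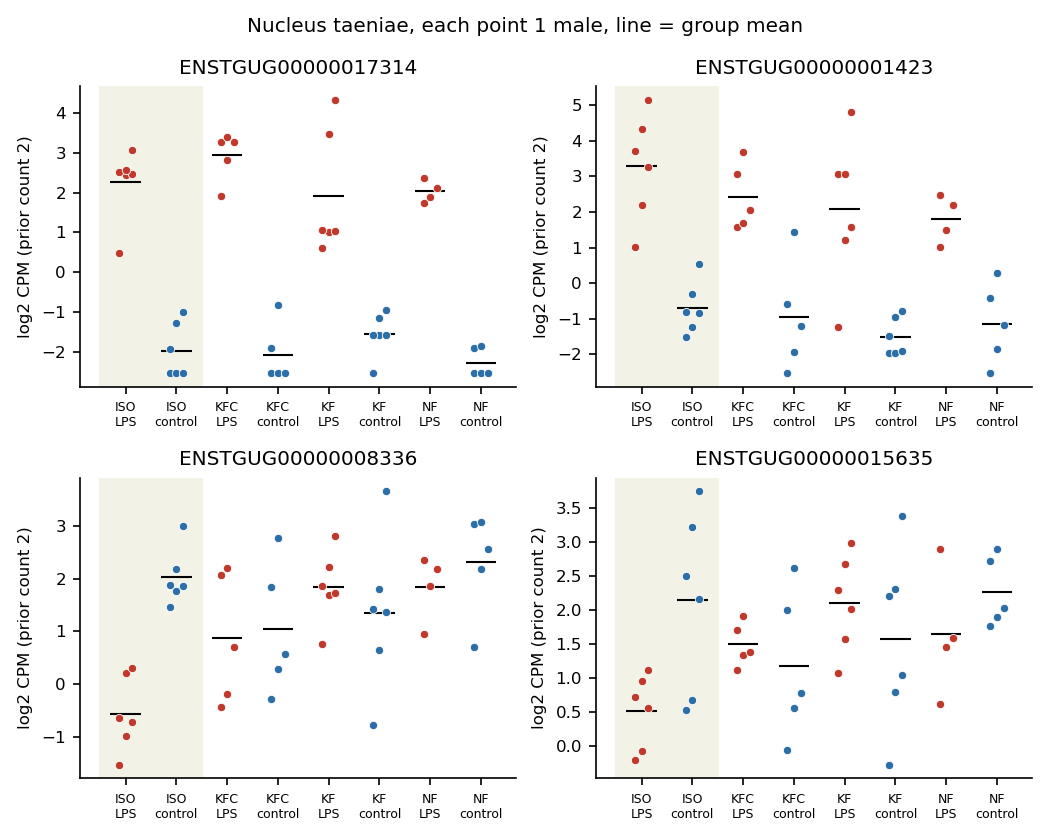
Levels of the 4 genes in TN, in log2 CPM with a prior count of 2 (vertical axis), by social setting and injection (horizontal axis); each point is 1 male, red for LPS and blue for control, and lines are group means. In the shaded ISO groups both genes of the upper row stand higher and both of the lower row lower after LPS. In KFC, KF and NF the group means of the upper genes are higher again, and the lower genes overlap between LPS and control males. For ENSTGUG00000001423, KF LPS male 32 lies within the range of KF control males. Both upper genes passed the filter only through LPS libraries, which include those of KFC, KF and NF.

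Separation between the injection groups varied from gene to gene. For 73 of the 130 rises the lowest LPS male lay above the highest control male, an arrangement found in 0.891% of all genes tested, which is again 130 genes but not all of them called. For 12 of the 24 falls the highest LPS male lay below the lowest control male, which held for 0.39% of all genes tested. At least 5 of the 6 LPS males were beyond all control males in 100 rises and in 19 falls, where all LPS males or all but 1 lay above in 2.74% and below in 1.79% of all genes tested. In 7 rises and 2 falls that was so for 3 or fewer LPS males. The rises and falls were called for their difference between these same groups. That more of them were separated than of all genes follows from that choice. LPS males also differed more among themselves in the rising genes: the median SD of log2 CPM over these genes was 0.55 in LPS males and 0.41 in control males, where all genes tested had 0.30 and 0.29. The prior count of 2 draws levels near 0 together, and 32 of the 130 rises had a control mean under 1 CPM. The part of level in these spreads was not tested. For the falls the median SD was 0.235 in LPS males and 0.22 in control males.

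The 6 LPS males stood at different levels of the rising genes. The mean log2 CPM over the 130 rising genes, given relative to the mean of the 6 control males, was 2.24 in LPS male 8, 2.06 in male 56, 1.75 in male 9, 1.61 in male 6, 1.38 in male 14 and 1.07 in male 16, against -0.13 to 0.25 in control males. That these groups lie apart follows from how the genes were chosen, and the order among LPS males is not independent of that choice. The count of called genes was 87 without LPS male 8, 100 without male 56 and 195 without male 16. Male 8 had the highest level of the LPS males in 61 of the 130 genes and male 56 in 41, while male 16 had the lowest in 68. LPS male 16 exceeded all control males in 86 of the 130 genes, male 14 in 104, and the other 4 in 122 to 126. On the first principal component of the 12 libraries, which held 20.9% of the variance over all genes tested, LPS male 16 lay at -12.7, LPS males 6, 8, 9, 14 and 56 at 9.31 to 55.0, and control males at -42.4 to 0.904. The libraries of male 8 (9605768 counts) and male 6 (9049816 counts) were the shallowest, that of male 16 held 11717462 counts, and the part of depth in this order was not tested.

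The order of the males returned in part in the other regions of the same brains. Those libraries had no part in choosing the genes, but the TN libraries of the same males did. In NST the mean over the 130 genes, relative to control males, was 2.29 in LPS male 8, 2.14 in male 56, 1.80 in male 9, 1.44 in male 6, 1.20 in male 14 and 1.10 in male 16, against -0.20 to 0.39 in control males. The order was the one seen in TN. In HY it was 2.18 in LPS male 8, 1.90 in male 56, 1.67 in male 9, 1.44 in male 16, 1.31 in male 14 and 1.24 in male 6, against -0.11 to 0.18 in control males. Male 16, lowest in TN and NST, was thus above males 14 and 6 in HY. Control males differed in a like way: males 5 and 53 were the highest controls in TN (0.18 and 0.25), in NST (0.39 and 0.24) and in HY (0.080 and 0.18). Over the 24 falling genes LPS males stood at -0.90 to -0.67 in TN, -0.77 to -0.39 in NST and -0.77 to -0.44 in HY, against control males at -0.17 to 0.13, -0.21 to 0.13 and -0.12 to 0.21, in the same order of regions.

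**Figure D3:**
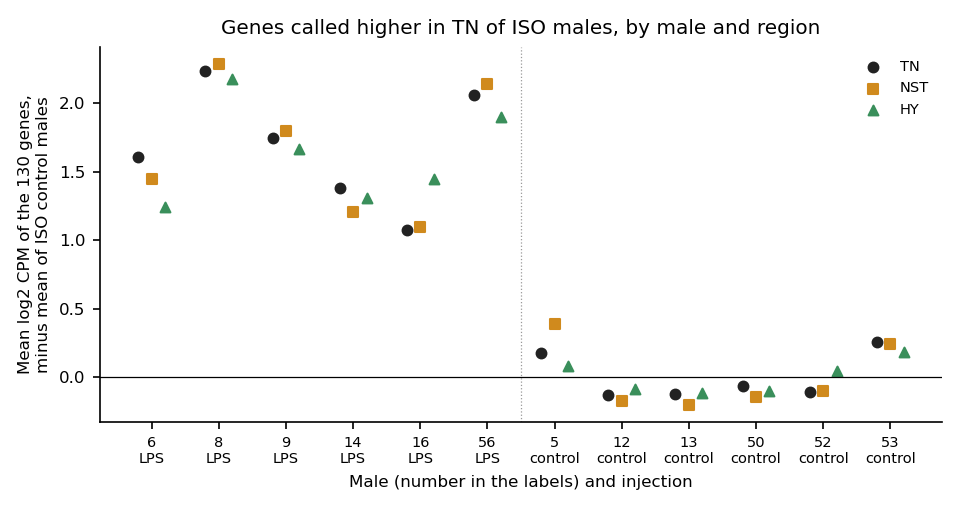
Mean log2 CPM of the 130 genes called higher in TN of ISO males, minus the mean of the 6 ISO control males of the region (vertical axis), for each male and injection (horizontal axis); circles are TN, squares NST and triangles HY. LPS males lie between 1.07 and 2.29 in all 3 regions, control males between -0.20 and 0.39, and LPS male 8 is the highest in each region.

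The response in TN was compared with that in the other regions of the same males, to see which changes are shared between regions. Of the 130 rises in TN, 88 (67.7%) also passed the test in NST and 96 (73.8%) in HY, where 163 genes (1.13% of those tested) and 142 genes (0.985%) were called higher. Both regions shared 78 of them, and 24 passed in neither, counts not made over all genes tested. Their median change was 1.66 in NST and 1.59 in HY. Of the 24 falls 7 (29.2%) passed in NST and 8 (33.3%) in HY. Over all genes tested there, 22 (0.153%) and 17 (0.118%) were called lower. In each region 23 of the 24 had a negative fitted change, where 49.5% of all genes had a positive one in NST and 49.8% in HY. The median over the 24 was -0.48 in NST and -0.50 in HY. These regions come from the same brains and are not independent of each other.

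Whether the response itself differed between regions was tested within males. Between TN and HY 0% of 13938 genes differed (edgeR with male as a block), with 886 at an unadjusted p under 0.05 and a smallest adjusted p of 0.762. DESeq2 also called 0. Between TN and NST 0% of 14001 genes differed by edgeR, with 929 at an unadjusted p under 0.05 and a smallest adjusted p of 0.0630, while DESeq2 called 11. The median SE of these differences was 0.18 on the log2 scale for either pair, so differences of small size were not detectable. Larger ones could be missed too: the gene with the smallest adjusted p against NST had a response 0.79 (SE 0.12) larger in TN and was not called by edgeR. For ENSTGUG00000017314 the response was 1.09 (SE 0.71) larger in TN than in HY and 0.45 (SE 0.74) larger in TN than in NST. ENSTGUG00000001423 had differences of 0.69 (SE 0.80) from HY and -0.23 (SE 0.56) from NST, and for both genes the edgeR adjusted p was at least 0.826.

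In control males, more of the genes that rose stood lower in TN than stood higher there, against either other region. This was measured in 16 control males of KFC, KF and NF, with none of the ISO libraries and the male as a block, and 101 of the 130 genes had enough counts there to be tested against HY and 100 against NST. Against HY 36 of 101 (35.6%) were lower in TN, where 25.1% of all genes were, and 7 (6.93%) were higher, where 24.3% were (edgeR, adjusted p under 0.05). Against NST 25 of 100 were lower in TN, where 17.2% of all genes were, and 6 were higher, where 16.3% were. The median difference was -0.21 on the log2 scale against HY and -0.11 against NST. The genes that fell leaned the same way. Of these 24, 10 (41.7%) were lower and 3 (12.5%) higher in TN than in HY, and 5 (20.8%) lower and 0 higher than in NST. In these same control males of other settings the rising genes also varied more, with a median SD of log2 CPM of 0.53 in TN, against 0.35 over all genes tested. The rising genes were less abundant, however, with a median level of 3.73 CPM in ISO control males, against 19.2 CPM over all genes tested. The shares over all genes were not matched to the rises in level. The part of level in this spread and in the comparison of regions was not tested.

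The rises returned in other males. In the mean of KFC, KF and NF, which share no library with ISO, 105 of the 130 genes passed the test as rises in TN. Of all genes tested 1.71% did, a share not matched to the 130 in level. Among the 130, 129 had a fitted change above 0, where 47.1% of all genes tested did, and their median change was 1.10 in these males. The males were separate, but all TN libraries went through the same filter and fit. Of the 130 genes 18 entered only through LPS libraries, which include those of KFC, KF and NF. These 18 were not set apart in the counts given here. Setting by setting 64 (49.2%) passed in KFC, 62 (47.7%) in KF and 13 (10%) in NF, with median changes of 1.38, 1.31 and 0.91. The genes called higher in all numbered 97 in KFC (0.664% of those tested), 81 in KF (0.555%) and 13 in NF (0.0891%), so each of the 13 in NF was among the 130. The fitted change was above 0 in all 3 settings for 123 of the 130, a count not made over all genes tested. Taken 1 setting at a time, it was above 0 for 47.2% of all genes in KFC, 47.6% in KF and 49% in NF. In level, the mean over the 130 genes was 3.07 to 4.07 log2 CPM in KFC, 2.89 to 3.35 in KF and 2.40 to 3.17 in NF in LPS males, against 1.71 to 2.14, 1.61 to 2.01 and 1.56 to 1.93 in control males of those settings. In ISO it was 2.86 to 4.02 in LPS males and 1.65 to 2.04 in control males.

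The 24 falls, smaller in ISO than the rises, were followed in the same males. In the mean of KFC, KF and NF 8 passed as falls in TN, where 0.76% of all genes tested did. The median change of the 24 was -0.15 there and 5 had a fitted change above 0, where 47.1% of all genes tested did. Setting by setting 5 (20.8%) passed in KFC, 4 (16.7%) in KF and 2 (8.33%) in NF, with median changes of -0.10, -0.17 and -0.25. The genes called lower in all numbered 23 in KFC (0.158% of those tested), 16 in KF (0.11%) and 2 in NF (0.0137%). In level, the mean over the 24 genes was 4.11 to 4.23 log2 CPM in KFC and 4.22 to 4.43 in NF in LPS males. Control males of these settings lay above, at 4.41 to 4.75 and 4.44 to 4.79. In KF, LPS males at 4.22 to 4.40 overlapped with control males at 4.21 to 4.74. In the other regions of the KFC, KF and NF males the median changes were -0.13 in NST and -0.17 in HY, with 7 and 8 genes called lower, where 1.26% and 1.16% of all genes tested were. The median fall of the 24 genes was thus nearer 0 in each region of the males of other settings than in NST and HY of the ISO males, which shared the brains in which the genes were chosen. For the rises the medians in males of other settings were 1.34 in NST and 1.35 in HY, with 108 and 106 genes called higher, where 2.98% and 2.46% of all genes tested were.

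**Figure D4:**
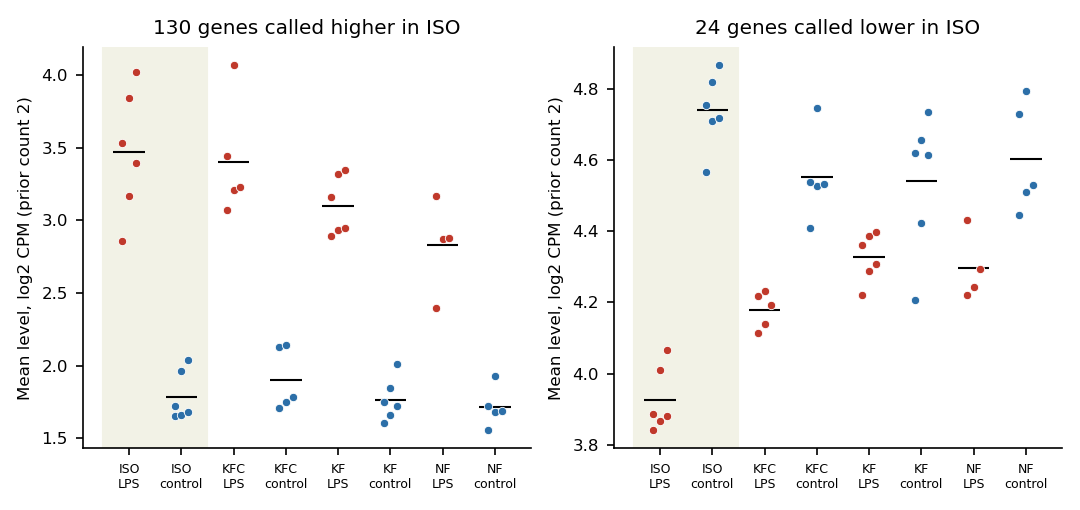
Mean level in TN, in log2 CPM with a prior count of 2 (vertical axis), of the 130 genes called higher in ISO (left) and the 24 called lower in ISO (right), by social setting and injection (horizontal axis); each point is 1 male and lines are group means. LPS males lie above control males in each setting on the left. On the right the ISO groups lie at 3.84 to 4.07 in LPS males and 4.57 to 4.87 in control males. LPS males also lie below control males there in KFC and NF, and overlap with them in KF. The genes were chosen for their change in the ISO libraries, so the gap in ISO follows from that choice in both panels.

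Both identified genes that rose were higher again in other settings, though not past the threshold in each. Both passed the filter only through LPS libraries, which include those of KFC, KF and NF. Their changes in these settings are thus not independent of the filter. ENSTGUG00000017314 rose in each other setting, with a log2 change of 6.29 (SE 0.88) in KFC, 4.99 (SE 0.73) in KF and 6.32 (SE 0.99) in NF and edgeR adjusted p of 0.000297 or less. ENSTGUG00000001423 rose in KF by 5.27 (SE 0.92, edgeR adjusted p = 0.000921), and its changes of 3.19 (SE 0.88) in KFC and 3.09 (SE 0.95) in NF did not pass (edgeR adjusted p = 0.0784 and 0.482). In the mean of the other settings it passed with 3.85 (SE 0.53, n = 15 LPS and 16 control males). The KF groups overlapped, however. LPS male 32 stood at 0.256 CPM, within the 0.0824 to 0.407 CPM of KF control males, and LPS male 35 was the highest at 27.7 CPM.

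ENSTGUG00000008336 fell in both other regions of the ISO males, by 2.51 on the log2 scale in NST (SE 0.61, edgeR adjusted p = 0.0206) and by 2.61 in HY (SE 0.68, edgeR adjusted p = 0.0432). In TN of the other males its change was -0.29 (SE 0.36, edgeR adjusted p = 0.847), with a median of 3.45 CPM (0.571 to 6.83) in 15 LPS males and 2.92 CPM (0.412 to 12.4) in 16 control males. The 6 ISO control males, at 2.59 to 7.81 CPM, lay within the range of control males of other settings. Of the 6 ISO LPS males, at 0.175 to 1.07 CPM, 2 were below the lowest control male of other settings.

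ENSTGUG00000015635 changed by -1.95 in HY of the ISO males (SE 0.51, edgeR adjusted p = 0.0447) and by -1.62 in NST (SE 0.52), which did not pass (edgeR adjusted p = 0.158). In TN of the other males its change was -0.087 (SE 0.33, edgeR adjusted p = 0.960), with a median of 2.84 CPM (1.36 to 7.81) in LPS males and 3.70 CPM (0.655 to 10.3) in control males. Control males of other settings thus spanned a range like that of the ISO control males, who ran from 1.28 to 13.3 CPM.

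**Figure D5:**
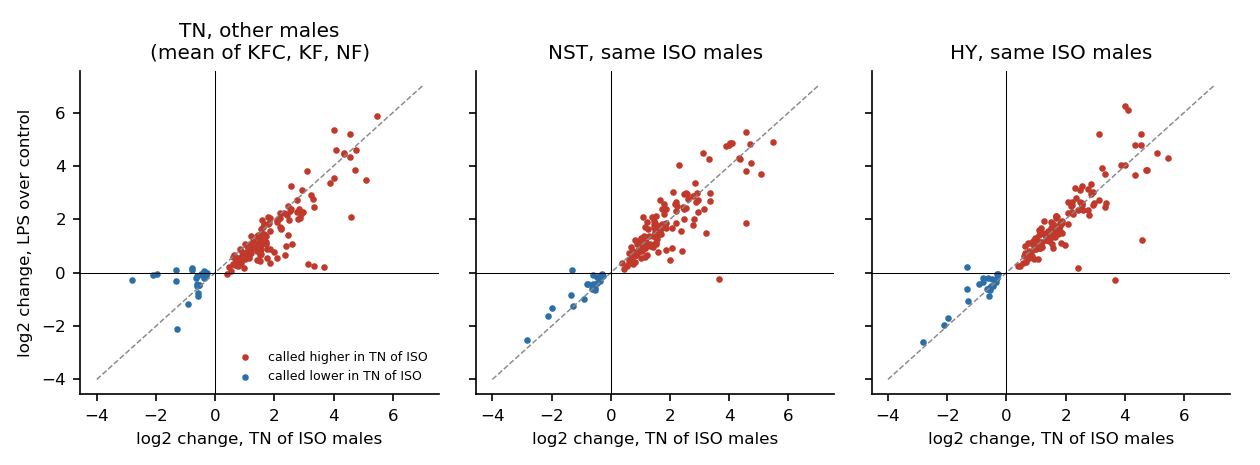
Log2 change, LPS over control, of the 154 called genes in TN of ISO males (horizontal axes) against their change in TN of the other males, in NST of the same males and in HY of the same males (vertical axes); red points were called higher and blue points lower in TN of ISO males, and the dashed line marks equal changes. Blue points have a median of -0.15 in the left panel, -0.48 in the middle and -0.50 in the right.

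The difference between ISO and the other settings was also tested directly, in TN. The response in ISO differed from the mean response in KFC, KF and NF for 0% of 14598 genes by edgeR, with 1046 at an unadjusted p under 0.05 and a smallest adjusted p of 0.524, and for 1 gene by DESeq2. Without LPS male 16 edgeR called 1. ENSTGUG00000008336 had a difference of -2.53 (SE 0.73, edgeR adjusted p = 0.525) and ENSTGUG00000015635 one of -2.03 (SE 0.64, edgeR adjusted p = 0.562). Both genes were taken for their fall in ISO, which enters this difference. For the rises ENSTGUG00000017314 and ENSTGUG00000001423 the differences were -0.40 (SE 0.93) and 0.86 (SE 0.97). The median SE over all genes was 0.23, and a p that misses the threshold does not show that the responses were alike.

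The genes were also chosen the other way round, by their change in TN of the other males. The filter and fit were again those of all TN libraries together. Genes that entered only through LPS libraries, which include those of ISO, were not set apart in the counts below. Of the 250 genes called higher in TN in the mean of KFC, KF and NF, 246 had a fitted change above 0 in ISO, where 49.8% of all genes tested did, and 105 (42%) were called higher there, where 0.891% of all genes were. Their median change was 1.11 in ISO, against 1.03 in the males by which they were chosen. Of the 111 genes called lower in those males, 81 had a fitted change below 0 in ISO, where 50.2% of all genes tested did, and 8 (7.21%) were called lower there, where 0.164% of all genes were. Their median change was -0.17 in ISO, against -0.50 in the males by which they were chosen. Of the 130 rises of TN in ISO males, 22 passed in no single other setting of TN and in neither other region of the ISO males. Of the 24 falls this held for 11. In all 5 of these comparisons 10 rises and 0 falls passed. These counts were not made over all genes tested.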

How the data were processed

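The deposited table holds raw counts of reads, in whole numbers, for 18618 gene identifiers in 134 libraries. The submitters' processing notes name HISAT2 and HTSeq 0.6.1, per the labels. Build, annotation and use of strand were not given in the sources used here. How reads of overlapping or near-identical genes were counted is thus not known. Columns were matched to libraries by their labels.

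Counts of the 43 TN libraries were fitted with edgeR 4.0.16 in R 4.3.3 as 8 groups of setting and injection (filterByExpr with minimum count 10 and minimum total 15, TMM scaling, robust quasi-likelihood test, Benjamini-Hochberg threshold 0.05). Each SE is the fitted log2 change divided by the square root of F, which is approximate for low counts and for changes near 0. For 1 called gene averaging 0.704 CPM it was 1.08 in ISO and 0.747 in the mean of the other settings. For the difference between these responses it was 0.325, smaller than either. NST and HY were fitted likewise. Differences of the response between regions used the ISO libraries with the male as a block, since regions came from the same brains. Deviations from group means correlated between the regions of a male at 0.468 to 0.623 for TN with HY and 0.308 to 0.593 for TN with NST, in 12 of 12 males each. Replicates of a group are separate males by their numbers. Among 66 pairs of the 12 libraries the lowest chi-square per gene was 16.0, so none were merged. Log2 CPM used a prior count of 2. With these depths the spread between males (biological coefficient of variation 0.306) limits the precision for all but low counts.

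The members and lists were chosen with earlier results of these data known. Genes given by identifier are the 2 largest rises and 2 largest falls among called genes with a mean of at least 1 CPM over the 12 libraries, the rule for identifiers that cannot be paired with symbols. None of the 390 symbols of 19 gene lists could be matched, so no list was used. Comparisons of control levels between regions, principal components, thinning and the filter applied to control libraries alone were added after the data were seen. Models were tested on simulated data. Alternatives were DESeq2 1.42.0, RLE scaling, no filter, the 12 ISO libraries alone, no block and leaving out each library. Figures used matplotlib 3.10.9.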

Additional observations from a re-analysis of the deposited data

Results flagged for a closer look

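Checks for 1 sample far from the rest of its group of 6 were made on 18 sets of values, of which chance flags about 1 in 20. Control male 50 stood at 7.81 CPM of ENSTGUG00000008336 in TN, and the nearest other control male at 4.37 CPM. The gap made up 0.660 of the group's range. The TN library of control male 53 correlated with the median TN library at 0.975, and the nearest other control library at 0.977.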

How the results depend on the processing

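The count of 154 genes called for LPS in TN of ISO males was 154 with RLE scaling, 147 with no filter on low counts and 143 after thinning, 98 in the fit to the 12 ISO libraries alone and 264 with DESeq2, whose calls included all 130 rises and all 24 falls. Leaving out 1 library gave 84 to 195. Of the 154 genes, 82 were called in the same direction in at least 1 other setting of TN. Neither this count nor those of the alternatives below was made over all genes tested. Each alternative was counted over its own called genes. That gave 82 of 154 with RLE scaling, 80 of 147 with no filter, 80 of 143 after thinning and 111 of 264 with DESeq2. With 1 library left out it gave 58 to 85, in fits that called 84 to 195 genes. For the difference between ISO and the other settings DESeq2 called 1 gene, the other alternatives 0, and leaving out 1 library 0 to 1. For TN against HY each alternative called 0, and for TN against NST DESeq2 called 11 and the others 0; without the block for paired regions (no replicate block) both counts were 0, and leaving out a male gave 0 in each case. Of the 4 genes given by identifier 3 kept their direction and their call under every alternative run. ENSTGUG00000015635 kept its direction and missed the threshold with no filter (-2.12, adjusted p = 0.0532) and in the ISO libraries alone (-2.12, adjusted p = 0.108), and with 1 library left out ran from -2.33 to -1.69. The cause of these shifts was not tested.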
